A study of Mus musculus with 143 samples.

Results

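The disease-associated microglia genes Cst7, Clec7a, Itgax, Trem2, Tyrobp, Apoe, Lpl, Axl, Spp1 and Cd68 were followed in the striatum of a mouse model of Huntington's disease. The 10 genes were taken by name from the 41128 genes of the expression table, and each of them had an identifier there. RNA had been sequenced from the striatum of zQ175 mice, which carry an expanded CAG repeat knocked into their own Htt gene, and of wild-type (WT) mice, in 143 libraries of 1 mouse each. Mice of each genotype received the small interfering RNA (siRNA) HTT-10150, which targets Htt, or the non-targeting siRNA NTC, or stayed untreated. Names of the 3 strategies give months of age: treatment at 2 and sacrifice at 6 months in 2[4]6, treatment at 6 and sacrifice at 10 months in 6[4]10, and treatment at both 2 and 6 with sacrifice at 10 months in 2+6[8]10. Each of the 18 groups held 8 mice, 4 of each sex, except the WT group under HTT-10150 in 2+6[8]10 with 7 (2 females and 5 males). The labels state neither strain background nor zygosity, and no dose, route or chemistry for the siRNA. Both Htt alleles of a zQ175 mouse are counted together.

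Microglia are the resident macrophages of the brain. Beside plaques, dying neurons and damaged myelin some of them lower their homeostatic receptors and take up a disease-associated programme, in which genes of phagocytosis, lysosomes and lipid handling are raised. TREM2, a receptor for lipids and apolipoproteins, signals through its adaptor TYROBP and is needed for the full programme in mouse models of amyloid disease, where Tyrobp and Apoe belong to an early stage and Cst7, Clec7a, Itgax, Lpl, Axl and Spp1 to a later one. CST7 (cystatin F) inhibits lysosomal cysteine proteases, CLEC7A (dectin-1) is a receptor for fungal glucans, and ITGAX (CD11c) is an integrin chain. APOE carries lipid and LPL splits triglyceride, AXL is a receptor tyrosine kinase that binds GAS6 on dying cells, SPP1 (osteopontin) is a secreted ligand of integrins, and CD68 is a lysosomal membrane protein. In whole striatum only some of these transcripts come mainly from microglia: Apoe is made largely by astrocytes, Lpl also by neurons, and Axl by several cell types.

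The members lie apart in the genome on GRCm38 (annotation GENCODE M21). Cst7 spans 150570415 to 150578944 on the plus strand of chromosome 2, Clec7a spans 129461591 to 129472779 on the minus strand of chromosome 6, and Itgax spans 128129547 to 128150657 on the plus strand of chromosome 7. Tyrobp, Apoe and Axl are also on chromosome 7, Lpl on 8, Trem2 on 17, Spp1 on 5 and Cd68 on 11. In this annotation Clec7a is classed as a polymorphic pseudogene, and Spp1 overlaps the provisional transcript Gm42793 on the same strand, so reads of these 2 loci may have been shared. The promoter windows of the 3 members that differed most between genotypes are printed from RefSeq (GRCm38.p6), from 250 bases before to 50 bases after the start, because those 3 genes rose together in zQ175 mice at 10 months. Capitals mark the motif found in each window: TGANTCA, the AP-1 site, in Cst7 and Itgax, and GAGGAA, the core of PU.1-type ETS sites, in Clec7a.
Cst7 (chr2:150570165-150570464, plus strand): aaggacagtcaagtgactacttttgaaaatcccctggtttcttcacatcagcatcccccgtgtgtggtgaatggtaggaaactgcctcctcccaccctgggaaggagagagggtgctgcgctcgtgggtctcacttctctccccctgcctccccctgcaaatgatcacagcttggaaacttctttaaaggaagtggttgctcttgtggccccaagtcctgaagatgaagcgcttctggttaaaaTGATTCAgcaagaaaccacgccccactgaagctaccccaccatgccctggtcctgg
Clec7a (chr6:129472730-129473029, minus strand, the first of its 2 listed starts): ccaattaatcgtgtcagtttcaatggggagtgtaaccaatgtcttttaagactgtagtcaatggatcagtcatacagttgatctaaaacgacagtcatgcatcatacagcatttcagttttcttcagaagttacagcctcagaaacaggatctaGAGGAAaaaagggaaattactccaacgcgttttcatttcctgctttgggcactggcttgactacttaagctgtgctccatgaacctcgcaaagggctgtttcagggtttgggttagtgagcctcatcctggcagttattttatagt
Itgax (chr7:128129300-128129599, plus strand): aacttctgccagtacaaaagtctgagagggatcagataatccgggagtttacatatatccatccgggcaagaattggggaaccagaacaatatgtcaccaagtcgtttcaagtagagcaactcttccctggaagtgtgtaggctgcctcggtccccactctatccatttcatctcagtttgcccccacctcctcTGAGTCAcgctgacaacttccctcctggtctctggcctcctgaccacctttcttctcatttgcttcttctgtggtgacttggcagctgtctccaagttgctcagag

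The 3 windows held no motif in common among those searched. TGANTCA began 6 bases before the start of Cst7 and 56 bases before that of Itgax, and GAGGAA began 96 bases before the start of Clec7a. Both strands were searched, and no match overlapped another. Of 32851 RefSeq promoters of the same 300 bases, 28.3% held GAGGAA and 7.81% held TGANTCA. The GAGGAA core was also found in at least 1 window of Trem2, Apoe, Axl, Spp1 and Cd68, and TGANTCA in those of Trem2 and Cd68, members that did not differ in the same way. CACGTG, the site of MITF and TFE factors, was in none of the windows of the 8 members with an entry and in 7.15% of all promoters. Tyrobp and Lpl had no entry. These matches describe letters, not binding.

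Levels are given on a pair of scales: levels of 1 gene between groups are TMM-scaled CPM, the share of a library's counts, and levels between genes are TPM, which take transcript length into account. By median TPM over the 143 libraries Apoe stood at 3502, followed by Lpl at 46.6, Tyrobp at 40.2, Trem2 at 32.2, Axl at 24.2, Cd68 at 23.2 and Spp1 at 18. Clec7a at 1.24, Cst7 at 0.714 and Itgax at 0.375 TPM were the 3 lowest. Lpl and Tyrobp ranged from 27.5 to 57.3 and from 27.4 to 61.3 TPM, so neighbours in the middle of this order were not set apart by their spread over libraries. Counts of the 3 low members were small: from 0 to 54 for Cst7, from 4 to 87 for Clec7a and from 3 to 73 for Itgax. Cst7 was at 0 in 4 libraries, where a count of 0 allows up to 3 counts, or 0.106 to 0.247 CPM over the range of library sizes, for counting error only.

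Total counts ran from 12.55 M to 29.19 M (M for 1e+06) per library, around a median of 18.85 M. Some libraries stood apart by tissue: 18 libraries in 12 groups were rich in choroid plexus genes and 18 libraries in 13 groups were rich in the cortical genes Tbr1 and Neurod6, 34 libraries in all. For the members, the untreated genotype comparison and HTT-10150 against NTC in zQ175 mice were therefore also computed without them. A value of these comparisons that lost its call there is given beside the result. The other comparisons, Htt and the gene lists were not computed without these libraries, so their dependence on them is not known. Htt, the target, fell in 2+6[8]10 under HTT-10150 against NTC in both genotypes. The change was -0.36 ± 0.06 in zQ175 mice and -0.49 ± 0.06 in WT mice (log2 ± SE). In 6[4]10 the Htt change was -0.32 ± 0.08 in zQ175 and -0.34 ± 0.08 in WT, and in 2[4]6 it was -0.01 ± 0.05 in zQ175 and -0.26 ± 0.05 in WT, none of which passed the test (lowest adjusted p = 0.0567).

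In untreated mice Cst7, Clec7a and Itgax rose in zQ175 striatum in both 10-month strategies, by 2.32-fold to 4.51-fold, while neither Clec7a nor Itgax passed the test at 6 months and Cst7 was too low to test there. The abundant members Apoe and Axl moved the other way by small amounts. Trem2, Tyrobp, Lpl and Spp1 were called in none of the strategies. Genes were tested with edgeR's quasi-likelihood F test, 1 fit per strategy with sex as a term, and calls were made at an adjusted p (Benjamini-Hochberg, all genes of the fit) under 0.05. The genotype difference was wide: 32.6% of the genes tested were called in 2[4]6, 36.1% in 6[4]10 and 35.4% in 2+6[8]10. Against that background 3 of 9 members tested were called in 2[4]6 (all 3 lower), 4 of 10 in 6[4]10 (3 higher and 1 lower) and 5 of 10 in 2+6[8]10 (3 higher and 2 lower), so the share of members called was near the background in each strategy. In bulk tissue, fewer or more cells of a type and less or more RNA per cell cannot be told apart.

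Cst7, the protease inhibitor, was close to the detection limit at 6 months in both genotypes. Its lowest, median and highest levels in 2[4]6 were 0, 0.171 and 0.355 CPM in untreated zQ175 mice and 0.0543, 0.202 and 0.345 CPM in untreated WT mice. The groups overlapped almost fully, and Cst7 was too low to enter the test of that strategy (-0.33 ± 0.49 on the log2 scale in a single fit of all groups). For 6[4]10 Cst7 had 0.519, 0.990 and 2.63 CPM in untreated zQ175 mice, against 0.0568, 0.268 and 0.399 CPM in untreated WT mice. Every zQ175 mouse was above every WT mouse, and the share of all genes with such a separation was not counted. The difference was 2.17 ± 0.39 on the log2 scale, or 4.51-fold, with an adjusted p of 1.55e-05. Levels in 2+6[8]10 were 0.292, 1.13 and 1.58 CPM in untreated zQ175 mice and 0.0676, 0.261 and 0.378 CPM in untreated WT mice. Here the lowest zQ175 mouse lay within the WT range, and the difference was 1.96 ± 0.33 (adjusted p = 3.97e-06). A fold this size rests on few counts, and Cst7 entered these 2 tests through groups where it was high; it was also called in both with no filter on low counts, and was not kept where only the 2 groups compared set the filter.

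Clec7a, the glucan receptor, was detected in every library. Its lowest, median and highest levels in 2[4]6 were 0.669, 0.763 and 0.921 CPM in untreated zQ175 mice and 0.252, 0.503 and 0.815 CPM in untreated WT mice. The zQ175 mice lay in the upper part of the WT range or above it, and the difference of 0.47 ± 0.24 did not pass the test (adjusted p = 0.125). At 10 months in 6[4]10 it had 1.31, 1.88 and 3.50 CPM in untreated zQ175 mice, against 0.570, 0.894 and 1.31 CPM in untreated WT mice. The groups met at about 1.31 CPM, and the difference was 1.22 ± 0.22 (2.32-fold, adjusted p = 1.82e-05). The 2+6[8]10 levels of Clec7a were 1.30, 2.33 and 3.16 CPM in untreated zQ175 mice and 0.297, 0.715 and 1.44 CPM in untreated WT mice. The groups overlapped at their edges, with a difference of 1.55 ± 0.26 (2.94-fold, adjusted p = 4.88e-06).

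Itgax, the CD11c integrin chain, followed the same order. In 2[4]6 its lowest, median and highest levels were 0.289, 0.467 and 0.701 CPM in untreated zQ175 mice and 0.288, 0.409 and 0.563 CPM in untreated WT mice. The groups overlapped and differed by 0.13 ± 0.27. At 10 months in 6[4]10 it had 1.02, 1.74 and 3.31 CPM in untreated zQ175 mice, against 0.185, 0.669 and 1.13 CPM in untreated WT mice. Only the edges of the groups overlapped, and the difference was 1.47 ± 0.26 (2.77-fold, adjusted p = 1.2e-05). The 2+6[8]10 levels were 1.07, 1.71 and 3.04 CPM in untreated zQ175 mice and 0.297, 0.485 and 1.44 CPM in untreated WT mice. A single WT mouse, female 1, held the highest WT value of 1.44 CPM, and the difference was 1.63 ± 0.29 (3.10-fold, adjusted p = 8.71e-06).

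**Figure D1:**
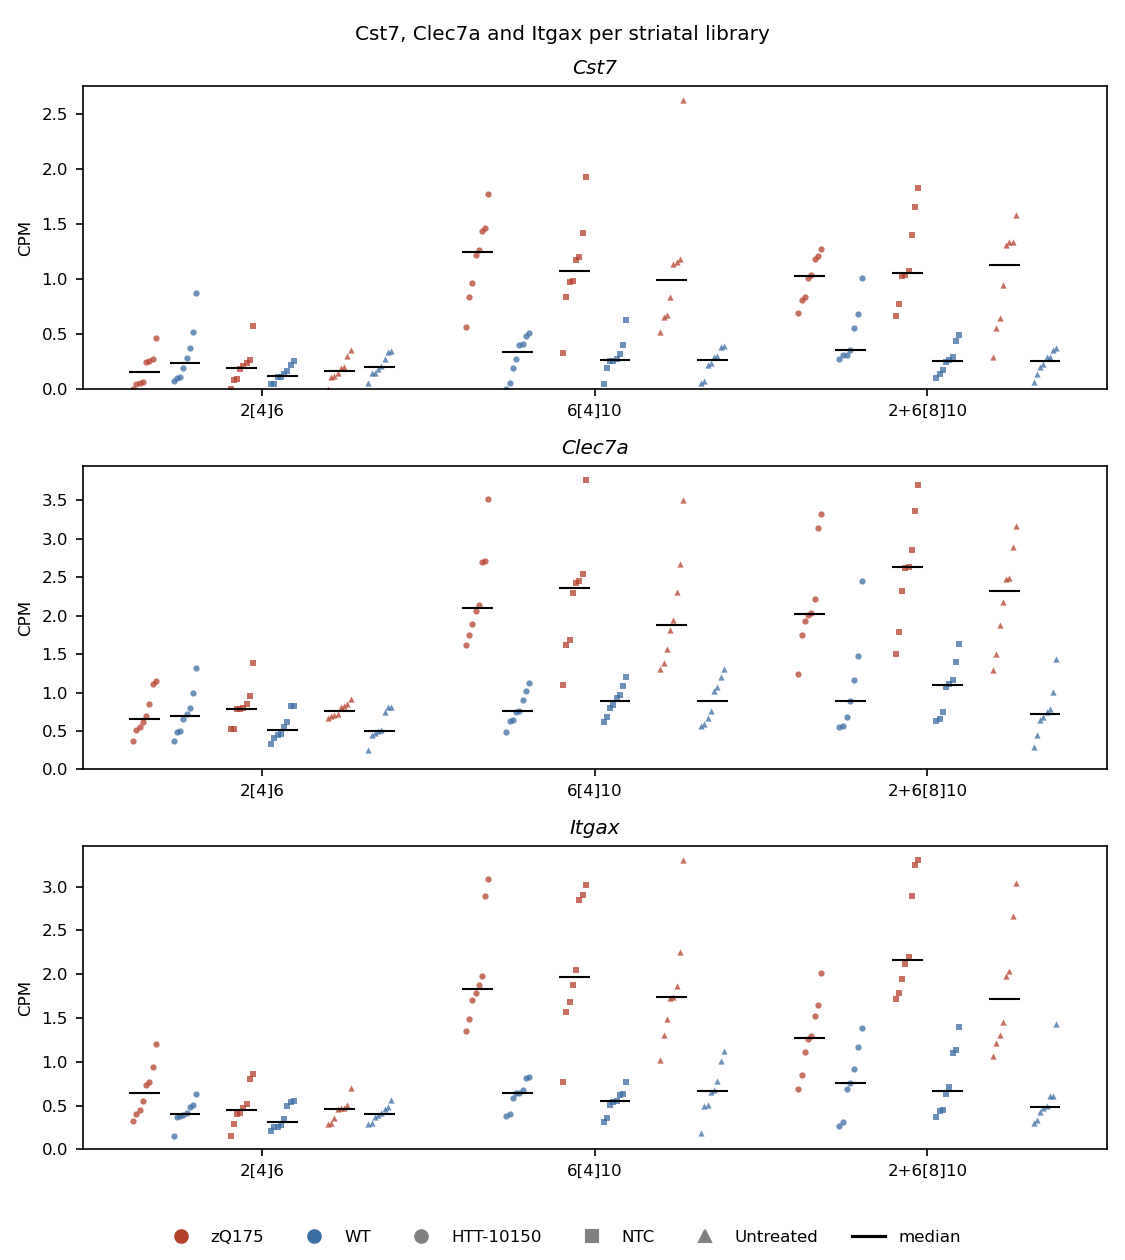
CPM (TMM-scaled, vertical axes) of Cst7, Clec7a and Itgax in each of the 143 libraries, with 1 point per mouse, sorted low to high within each group, zQ175 left of WT under HTT-10150, NTC and no treatment. In both 10-month strategies the zQ175 points sit mostly above the WT points, with Cst7 medians of 0.990 and 1.13 CPM in untreated zQ175 mice against 0.268 and 0.261 CPM in untreated WT mice, while in 2[4]6 the points of the genotypes overlap in each panel, with 3 of 8 untreated zQ175 mice above every untreated WT mouse for Clec7a.

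The plot of single libraries shows the shift as one of whole groups and not of a few mice. It also shows how far the mice of 1 group spread, from 0.519 to 2.63 CPM for Cst7 in untreated zQ175 mice of 6[4]10.

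The receptor complex of the programme did not follow Cst7, Clec7a and Itgax. Trem2 had a lowest, median and highest level of 16, 18.2 and 26 CPM in untreated zQ175 mice of 6[4]10 and of 17.2, 19 and 21.3 CPM in untreated WT mice. The groups overlapped throughout, and the difference was -0.02 ± 0.07. It was 0.01 ± 0.07 in 2+6[8]10 and -0.17 ± 0.08 in 2[4]6 (adjusted p = 0.109). The 2[4]6 value passed the test without the libraries rich in choroid plexus or cortical genes, at -0.25 with an adjusted p of 0.0378. Tyrobp, the adaptor, had 8.70, 10.9 and 16.8 CPM in untreated zQ175 mice of 6[4]10 and 8.88, 11.2 and 12.9 CPM in untreated WT mice. Its differences were -0.09 ± 0.08 in 2[4]6, 0.06 ± 0.09 in 6[4]10 and -0.01 ± 0.08 in 2+6[8]10, and none was called.

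Of the lipid genes, Apoe fell and Lpl did not pass the test. For 2+6[8]10 Apoe had a lowest, median and highest level of 1440, 1588 and 1708 CPM in untreated zQ175 mice, against 1732, 1814 and 1973 CPM in untreated WT mice. Every zQ175 mouse was below every WT mouse, although the difference was only -0.21 ± 0.04 on the log2 scale (adjusted p = 2.27e-05). Here too the share of all genes that separated fully was not counted. In 2[4]6 Apoe had 1319, 1604 and 1776 CPM in untreated zQ175 mice and 1521, 1923 and 2165 CPM in untreated WT mice. The groups overlapped, with a difference of -0.24 ± 0.06 (adjusted p = 0.000809). For 6[4]10 Apoe had 1485, 1710 and 2407 CPM in untreated zQ175 mice and 1786, 1964 and 2178 CPM in untreated WT mice, and the difference of -0.16 ± 0.07 missed the threshold (adjusted p = 0.062). The highest zQ175 value came from male 2, which was also the highest of its group for Cst7, Trem2 and Tyrobp. Without that library the Apoe difference in 6[4]10 was -0.24 with an adjusted p of 0.00177. Lpl had differences of 0.01 ± 0.07, 0.03 ± 0.09 and -0.01 ± 0.06 in 2[4]6, 6[4]10 and 2+6[8]10, with intervals at 95% confidence that reached no further than 0.20 on the log2 scale.

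Axl, the receptor tyrosine kinase, fell in all 3 strategies. In 6[4]10 its lowest, median and highest levels were 38.4, 42.6 and 47.1 CPM in untreated zQ175 mice and 44.0, 47.9 and 53.5 CPM in untreated WT mice. The groups overlapped, and the difference was -0.20 ± 0.05 (adjusted p = 0.00117). It was -0.16 ± 0.05 in 2[4]6 (adjusted p = 0.00482) and -0.14 ± 0.04 in 2+6[8]10 (adjusted p = 0.00965). The value in 2+6[8]10 was not called without the libraries rich in choroid plexus or cortical genes (-0.11, adjusted p = 0.154). Nor was it called when replicate number 1, 3 or 4 was left out, or in 2[4]6 without number 3 (-0.14, adjusted p = 0.0508).

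Spp1, the osteopontin gene, was the most spread of the abundant members. Its levels ran from 7.84 to 19.7 CPM in untreated zQ175 mice of 6[4]10 and from 7.21 to 19.7 CPM in untreated WT mice. The differences of 0.14 ± 0.21, 0.13 ± 0.26 and -0.22 ± 0.29 in 2[4]6, 6[4]10 and 2+6[8]10 were no larger than their errors. Cd68, the lysosomal protein, was slightly lower at 6 months, with 9.05, 10.2 and 11.9 CPM in untreated zQ175 mice against 9.75, 11.5 and 13.4 CPM in untreated WT mice. That difference of -0.19 ± 0.07 was called (adjusted p = 0.0427), but leaving out any 1 replicate number, the sex term or the filter on low counts ended the call, as did length and GC slopes as covariates (-0.17, adjusted p = 0.0671). At 10 months Cd68 differed by 0.04 ± 0.06 in each strategy, without a call.

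**Figure D2:**
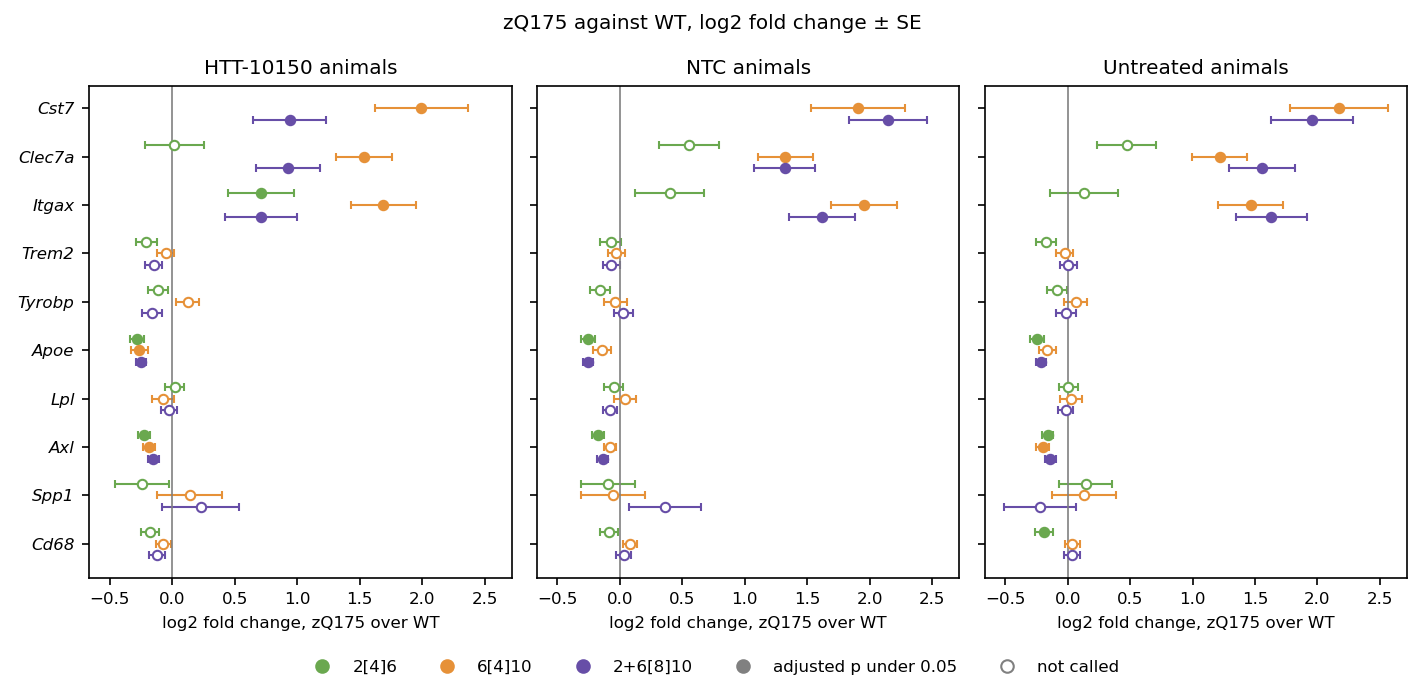
Log2 fold change of each member, zQ175 over WT, with its SE as error bars, in HTT-10150, NTC and untreated mice of the 3 strategies, where filled points have an adjusted p under 0.05 and the vertical line marks no change. Cst7, Clec7a and Itgax lie to the right in both 10-month strategies, at 1.22 to 2.17 in untreated mice, while Apoe and Axl lie just left of the line, between -0.28 and -0.08 over the 9 comparisons.

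The forest of fold changes sets untreated mice beside 2 further sets of zQ175 and WT mice, those given NTC and those given HTT-10150. Under NTC 34.4% of the genes tested were called in 2[4]6, 32.8% in 6[4]10 and 42.1% in 2+6[8]10, and under HTT-10150 the shares were 33.5%, 34.7% and 36.2%. Under NTC the genotype difference of Cst7 was 1.91 ± 0.37 in 6[4]10 and 2.14 ± 0.31 in 2+6[8]10, that of Clec7a was 1.32 ± 0.22 and 1.32 ± 0.25, and that of Itgax was 1.96 ± 0.26 and 1.61 ± 0.26. All 6 values passed the test. These mice are other animals than the untreated ones, so the 3 genes rose in a second set of mice in each 10-month strategy. At 6 months under NTC Clec7a differed by 0.55 ± 0.24 (adjusted p = 0.0663) and Itgax by 0.40 ± 0.28, without a call. Apoe fell under NTC in 2[4]6 (-0.26 ± 0.06) and 2+6[8]10 (-0.25 ± 0.04) and had -0.14 in 6[4]10 (adjusted p = 0.107). Axl fell under NTC in 2[4]6 (-0.18 ± 0.05) and 2+6[8]10 (-0.14 ± 0.04) and had -0.08 in 6[4]10 (adjusted p = 0.232).

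Under HTT-10150 the genotypes still differed. In 6[4]10 the difference was 1.99 ± 0.37 for Cst7, 1.53 ± 0.22 for Clec7a and 1.69 ± 0.26 for Itgax. For each of the 3 genes every zQ175 mouse given HTT-10150 was above every WT mouse given it. This comparison called 34.7% of all genes, and the share of all genes with such a separation was not counted. In 2+6[8]10 the values were 0.94 ± 0.29 for Cst7 (adjusted p = 0.00962), 0.93 ± 0.25 for Clec7a (adjusted p = 0.00317) and 0.71 ± 0.29 for Itgax (adjusted p = 0.0478). All 3 were called, below the values in untreated and NTC mice of the same strategy. The difference from NTC mice was tested and called no member, as given with the siRNA effects. The difference from untreated mice was not tested. The Itgax call was lost with no filter on low counts (adjusted p = 0.0701). At 6 months Itgax was called under HTT-10150, at 0.71 ± 0.27 (adjusted p = 0.0325), also lost with no filter (adjusted p = 0.0513), while Clec7a differed by 0.02 ± 0.24. Apoe fell under HTT-10150 in all 3 strategies, with log2 differences of -0.28, -0.26 and -0.25, and Axl fell with -0.23, -0.19 and -0.15.

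**Figure D3:**
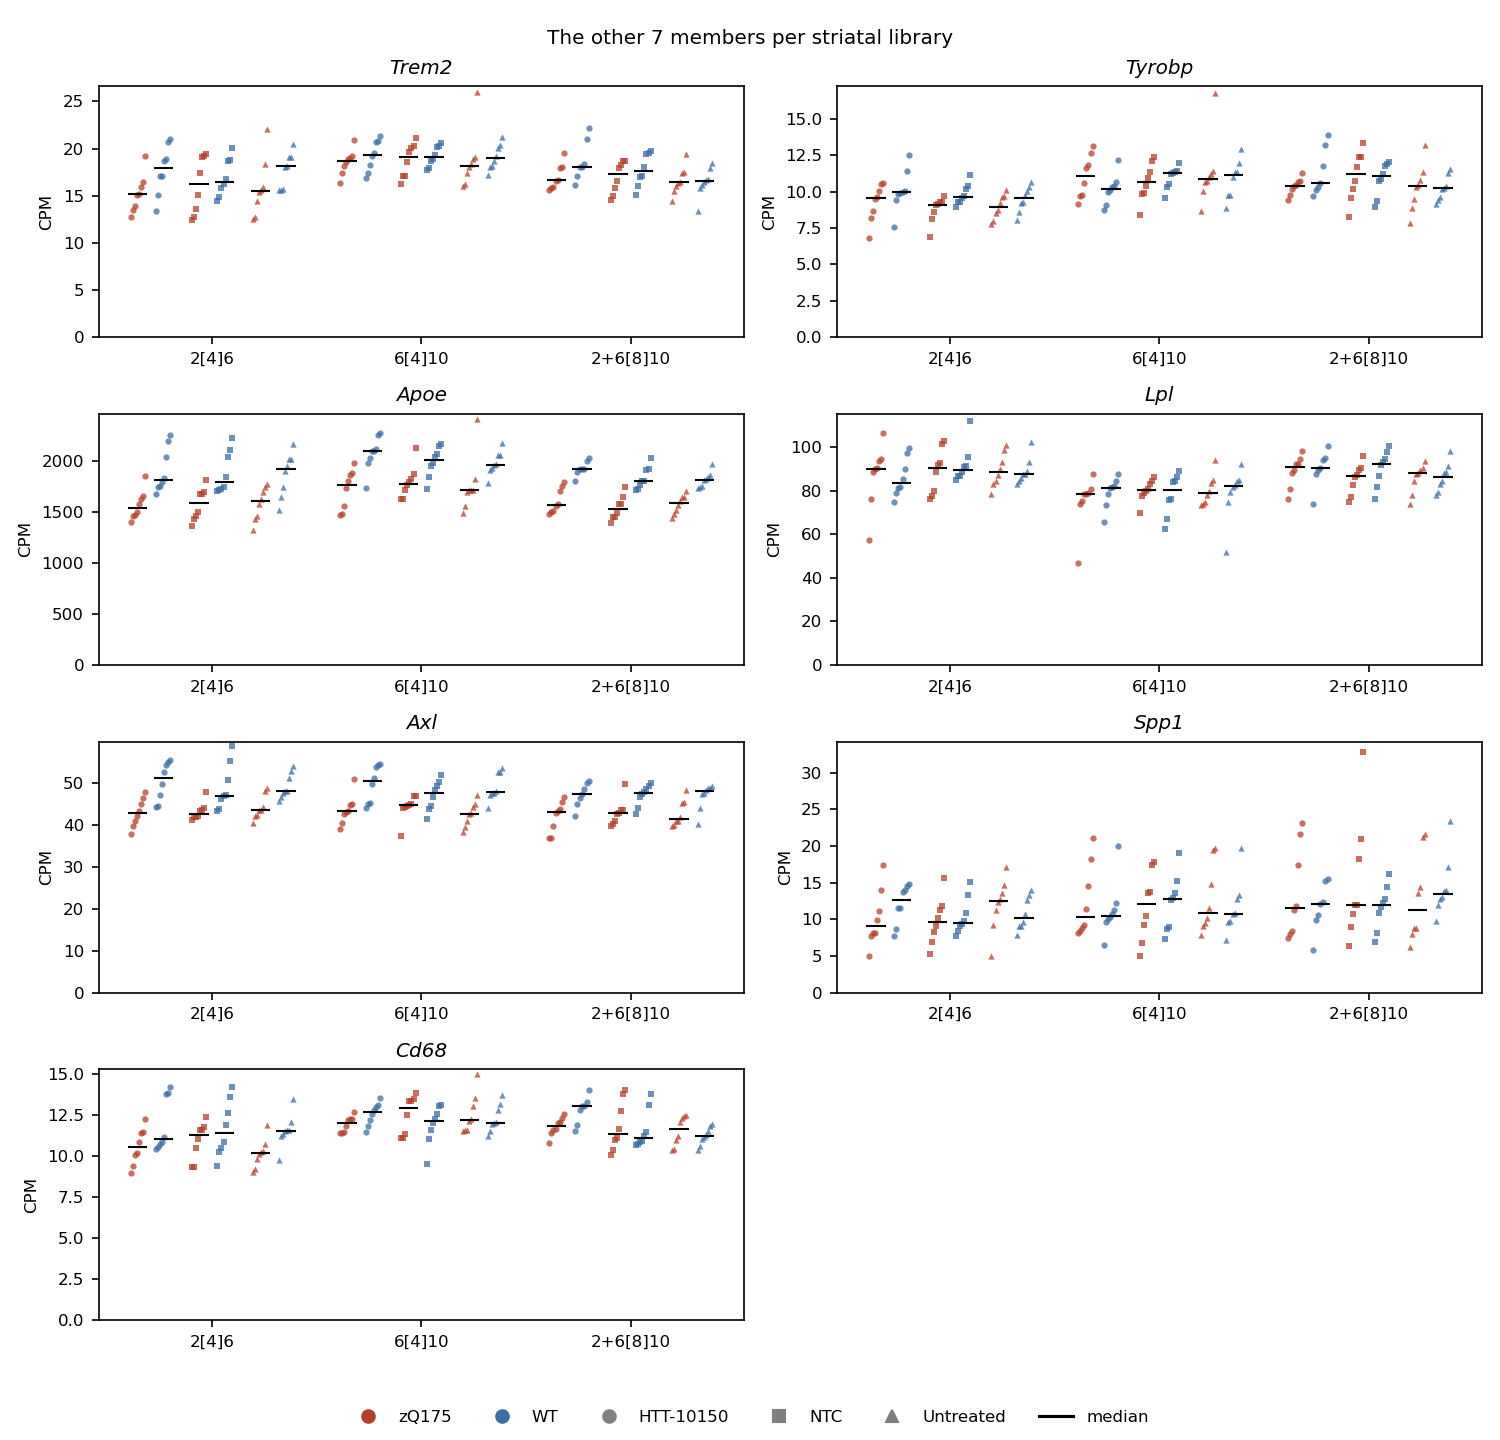
CPM (TMM-scaled, vertical axes) of Trem2, Tyrobp, Apoe, Lpl, Axl, Spp1 and Cd68 in each of the 143 libraries, with 1 point per mouse, sorted low to high within each group, zQ175 left of WT under HTT-10150, NTC and no treatment. The zQ175 and WT points of Trem2, Tyrobp, Lpl, Spp1 and Cd68 overlap at 10 months, though for Cd68 under HTT-10150 in 2+6[8]10 5 of 7 WT mice lie above every zQ175 mouse, and Apoe in untreated mice of 2+6[8]10 runs from 1440 to 1708 CPM in zQ175 and from 1732 to 1973 CPM in WT.

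At 10 months the log2 differences of these 7 members between genotypes ran from -0.26 to 0.36, against 0.71 to 2.17 for the 3 low members, and a few single mice lie far from their group.

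The direct effect of the siRNA was tested as HTT-10150 against NTC within each genotype. In zQ175 mice 0% of all genes were called in 2[4]6 and 0% in 6[4]10. The unadjusted p was under 0.05 for 821 of 15716 and 561 of 15757 genes, where chance alone gives a share of about 0.05. DESeq2 called no member there either. In 2+6[8]10 3.16% of the genes tested were called, and Itgax was the only member among them. Its lowest, median and highest levels were 0.693, 1.28 and 2.01 CPM in zQ175 mice given HTT-10150, against 1.72, 2.16 and 3.30 CPM in zQ175 mice given NTC. Of the 8 mice given HTT-10150, 7 were below the lowest mouse given NTC. The change was -0.83 ± 0.24 on the log2 scale, or 0.564-fold, with an interval of -1.30 to -0.35 and an adjusted p of 0.0457. Untreated zQ175 mice of that strategy stood between, at 1.07, 1.71 and 3.04 CPM, and against them HTT-10150 gave -0.41 with an adjusted p of 0.432.

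The Itgax call was close to the threshold and depended on the setting. It was lost when any of the 4 replicate numbers was left out (-1.08 to -0.73, adjusted p 0.0523 to 0.2), with no filter on low counts, with each library's length and GC slopes as covariates, and without the libraries rich in choroid plexus or cortical genes (-0.72, adjusted p = 0.589). Cst7 changed by -0.21 ± 0.25 and Clec7a by -0.22 ± 0.22 in the same comparison, neither called. In 6[4]10 the values in zQ175 mice were 0.12 ± 0.30 for Cst7, 0.05 ± 0.20 for Clec7a and -0.04 ± 0.22 for Itgax. In 2[4]6 Itgax had 0.47 ± 0.25 in zQ175 mice (adjusted p = 0.925), the opposite sign to 2+6[8]10.

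In WT mice no member was called for HTT-10150 against NTC, where 0.00636%, 0% and 0.0129% of the genes tested were called in 2[4]6, 6[4]10 and 2+6[8]10, with 517 genes at an unadjusted p under 0.05 in 6[4]10. Cst7 in 2+6[8]10 had a lowest, median and highest level of 0.273, 0.355 and 1.01 CPM in WT mice given HTT-10150, a group of 7, and 0.101, 0.256 and 0.498 CPM in WT mice given NTC. That difference of 0.998 ± 0.369 did not pass the test (adjusted p = 0.824). The effect of HTT-10150 in zQ175 minus that in WT was called for 0%, 0% and 0.529% of the genes in the 3 strategies and for no member, with 398 and 673 genes at an unadjusted p under 0.05 in 2[4]6 and 6[4]10. In 2+6[8]10 it was -1.21 ± 0.44 for Cst7 (adjusted p = 0.212) and -0.90 ± 0.40 for Itgax (adjusted p = 0.326), and Clec7a had -0.39 (adjusted p = 0.732). NTC against untreated mice called 0% of the genes in zQ175 mice of each strategy, and in WT mice 0%, 0% and 0.181%, with no member among them. In zQ175 mice 785, 1167 and 473 genes had an unadjusted p under 0.05 for NTC against untreated in 2[4]6, 6[4]10 and 2+6[8]10. In WT mice 316 and 394 genes did so in 2[4]6 and 6[4]10. For each such count chance alone gives a share of about 0.05 of the 15716, 15757 and 15506 genes tested in the 3 strategies.

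**Figure D4:**
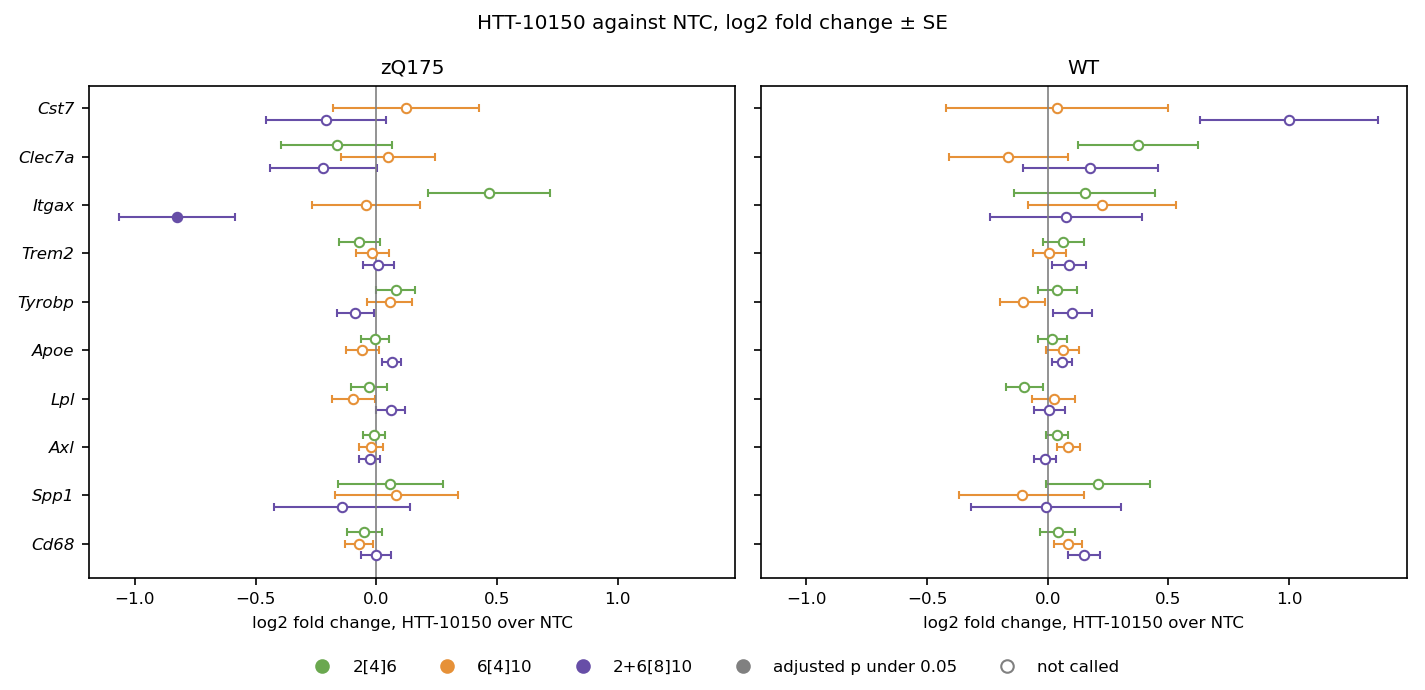
Log2 fold change of each member, HTT-10150 over NTC, with its SE as error bars, in zQ175 and WT mice of the 3 strategies, where filled points have an adjusted p under 0.05 and the vertical line marks no change. Itgax in zQ175 mice of 2+6[8]10, at -0.83 ± 0.24, is the single filled point, and the widest error bars belong to Cst7.

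The forest of siRNA effects shows the abundant members near no change and the low members with wide errors, so in 2+6[8]10 the intervals for zQ175 mice ran from -0.69 to 0.28 for Cst7 and from -0.65 to 0.21 for Clec7a on the log2 scale. The other 7 members had values between -0.14 and 0.08 in zQ175 mice over the 3 strategies.

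Differences between strategies were tested in 1 fit of all 143 libraries. In this design an age of 10 against 6 months and a different cohort of mice cannot be told apart, and the comparison of the 2 cohorts taken at 10 months shows what cohorts of 1 age differed by. In untreated zQ175 mice 6[4]10 against 2[4]6 called 19.4% of the genes and 8 of 10 members. Cst7 rose by 2.57 ± 0.42, Itgax by 1.91 ± 0.29 and Clec7a by 1.404 ± 0.25 on the log2 scale. Cd68 (0.36 ± 0.07), Trem2 (0.35 ± 0.08), Tyrobp (0.35 ± 0.09) and Apoe (0.23 ± 0.06) rose less, and Lpl fell by 0.23. The 6[4]10 group holds male 2, which lay far above its group for Cst7, Trem2, Tyrobp and Apoe, and this comparison was not computed without it. In untreated zQ175 mice 2+6[8]10 against 2[4]6 called 1.52% of the genes and 4 members: Cst7 (2.55 ± 0.43), Itgax (2.05 ± 0.28), Clec7a (1.65 ± 0.25) and Cd68 (0.25 ± 0.07). Both comparisons set 10-month mice against the same 8 mice of 2[4]6. The second call of Cd68 was lost with no filter on low counts (adjusted p = 0.0641). Between the 2 cohorts of 10 months 17.5% of the genes and no member were called.

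Untreated WT mice were compared between strategies in the same way. The share of genes called was 16.4% for 6[4]10 against 2[4]6, 7.57% for 2+6[8]10 against 2[4]6 and 9.09% for 2+6[8]10 against 6[4]10. Lpl in 6[4]10 against 2[4]6, at -0.25 ± 0.08, was the only member called in these 3 comparisons. Clec7a had 0.67 ± 0.29 (adjusted p = 0.0946) and Itgax 0.58 ± 0.33 in WT mice for 6[4]10 against 2[4]6, and Cst7 had 0.08 ± 0.50. The untreated genotype difference itself was larger in 6[4]10 than in 2[4]6 for Cst7, by 2.49 ± 0.63 (adjusted p = 0.0317), in a comparison that called 0.835% of the genes. With no filter on low counts that adjusted p was 0.052, and Cst7 entered this fit through groups where it was high. Itgax had 1.33 ± 0.41 (adjusted p = 0.0775) and Clec7a 0.74 ± 0.36 (adjusted p = 0.284) in the same test. For 2+6[8]10 minus 2[4]6, where 0.0675% of the genes were called, Cst7 had 2.29 ± 0.64 (adjusted p = 0.115), Itgax 1.51 ± 0.42 (adjusted p = 0.116) and Clec7a 1.09 ± 0.37 (adjusted p = 0.22), none called. For 2+6[8]10 minus 6[4]10, where 0.0123% were called, no member passed either.

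The genotype effect was compared between the sexes in untreated mice. The female minus male difference of the untreated genotype effect called 0% of all genes and no member in each strategy. An unadjusted p under 0.05 was found for 384 of 15716, 1538 of 15757 and 860 of 15506 genes, where chance alone gives a share of about 0.05. The largest value among the low members was that of Itgax in 6[4]10, at -1.32 ± 0.49 (adjusted p = 0.357). Each of these values rests on 4 mice per sex and group, and the intervals for Cst7 ran from -1.98 to 1.76 in 6[4]10 and from -0.96 to 1.87 in 2+6[8]10.

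Further genes of the programme that are not members were counted in the same comparisons. Of 24 listed genes, such as Lgals3, Ctsl, Ccl3 and Timp2, 20, 21 and 20 could be tested in untreated mice of 2[4]6, 6[4]10 and 2+6[8]10. In 2[4]6 2 rose and 1 fell, in 6[4]10 8 rose and none fell, and in 2+6[8]10 4 rose and 1 fell, with list medians of -0.03, 0.10 and 0.08 on the log2 scale. Over all genes 15.3%, 19.2% and 17.1% rose and 17.2%, 17% and 18.3% fell in these comparisons, and the medians were 0.00, 0.01 and 0.00, so the 4 of 20 that rose in 2+6[8]10 are near the background. Lgals3 (galectin-3) had differences of -0.31 ± 0.28, 0.91 ± 0.21 and 0.69 ± 0.24 in 2[4]6, 6[4]10 and 2+6[8]10, the last 2 called. Ccl3, a chemokine, rose by 1.24 ± 0.33 in 6[4]10, at means of 0.417 CPM in untreated zQ175 mice and 0.176 CPM in untreated WT mice, and was too low to test in the other two. Ccl6, also a chemokine, rose in 6[4]10 (0.58 ± 0.14). Timp2, a protease inhibitor made by many cell types, rose in all 3 strategies (0.30, 0.36 and 0.38), as did the protease gene Ctsl (0.13, 0.31 and 0.22). Fabp5, a fatty acid carrier, fell in 2+6[8]10 (-0.21 ± 0.05). In zQ175 mice HTT-10150 against NTC called none of this list in any strategy.

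Partners of single members were also counted, beside the 15.3%, 19.2% and 17.1% of all genes that rose and the 17.2%, 17% and 18.3% that fell in 2[4]6, 6[4]10 and 2+6[8]10. Among 9 proteases that cystatin F acts on and other lysosome genes, 0, 3 and 4 rose in the untreated genotype comparison of 2[4]6, 6[4]10 and 2+6[8]10, and none fell. They were Grn (progranulin), Gusb and Lamp2 in both 10-month strategies, with Grn at 0.25 ± 0.05 and 0.20 ± 0.04, and Ctss (cathepsin S, 0.12 ± 0.05) in 2+6[8]10. Of 12 tested genes of TREM2 and CLEC7A signalling, 2, 1 and 2 rose and 1, 2 and 0 fell. Pik3cd, a kinase subunit, rose in all 3 strategies (0.23, 0.23 and 0.25), and the inhibitory receptor gene Cd33 (-0.31 ± 0.10) and the exchange factor gene Vav1 (-0.28 ± 0.11) fell in 6[4]10. Of the 4 genes of the AXL family and its ligands none rose and 2, 1 and 2 fell: Tyro3 in all 3 strategies (-0.23, -0.15 and -0.14) and Mertk in 2[4]6 (-0.24 ± 0.06) and 2+6[8]10 (-0.20 ± 0.06). Of 7 integrins and osteopontin receptors 1 rose in each strategy, the integrin chain Itgav (0.38, 0.23 and 0.25), and 2, 0 and 0 fell. Itgb2, the partner chain of Itgax, was at -0.22 ± 0.07 in 2[4]6, a call, and at 0.07 ± 0.11 and 0.05 ± 0.09 in the 10-month strategies, without one. Of 11 tested partners of Apoe and Lpl 2, 1 and 3 rose and 1, 3 and 2 fell, among them the lipid exporter gene Abca1 (0.21, 0.00 and 0.30, called in 2[4]6 and 2+6[8]10).

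Levels of cell type markers were compared in the same fits, and the part that cell numbers have in these results was not tested. The summed level of 13 homeostatic microglia markers had a median of 499 CPM in untreated zQ175 mice and 537 CPM in untreated WT mice of 2[4]6, of 514 and 520 CPM in 6[4]10, and of 507 and 522 CPM in 2+6[8]10, and ran from 447 to 569 CPM in zQ175 and from 493 to 588 CPM in WT over the 3 strategies. None of the 13 was under 0.1 CPM. Of them 1, 0 and 0 rose and 5, 3 and 2 fell in 2[4]6, 6[4]10 and 2+6[8]10, where 17.2%, 17% and 18.3% of all genes fell, so the 2 of 13 in 2+6[8]10 are near the background. Cx3cr1 had -0.14, -0.18 and -0.06 and P2ry12 -0.01, -0.19 and -0.11, with the first 2 and the last 2 called. Tmem119 had -0.13, -0.04 and 0.04 (the first called), and Aif1 had -0.10, -0.08 and -0.01 (none called). No homeostatic marker rose in the 10-month strategies, where Cst7, Clec7a and Itgax were higher. Under NTC 1, 0 and 0 of the 13 rose and 8, 4 and 0 fell, and under HTT-10150 none rose and 5, 4 and 6 fell. Over all genes 18.5%, 15.9% and 21.4% fell under NTC and 17.4%, 16.9% and 18.7% under HTT-10150.

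Markers of other macrophages and blood cells were low. The 7 markers of border-associated macrophages summed to 3.55 to 6.42 CPM in untreated zQ175 mice and to 4.68 to 8.00 CPM in untreated WT mice. Only 3 of them could be tested, of which Mrc1 fell in untreated mice of 6[4]10 (-0.60 ± 0.24) and none rose there or in the other two strategies. Under NTC Mrc1 was higher in zQ175 than in WT mice of 2+6[8]10 (1.18 ± 0.24), at means of 0.972 CPM in zQ175 and 0.448 CPM in WT. Untreated mice of that strategy had means of 1.44 CPM in zQ175 and 1.52 CPM in WT, so both NTC means were below the untreated ones. The part of Mrc1-expressing cells in the rise of Cst7, Clec7a and Itgax under NTC was not tested. Under HTT-10150 Mrc1 fell in 6[4]10 (-0.77 ± 0.25). The 9 markers of monocytes, neutrophils and dendritic cells summed to 2.09 to 5.40 CPM in untreated zQ175 mice and to 2.56 to 5.42 CPM in untreated WT mice, with Ccr2 at a mean of 0.126 CPM over all libraries and S100a8 at 0.067 CPM. Only 1 of the 9 could be tested and it was not called. Of 6 T and NK cell markers Cd3e and Cd3d had means of 0.024 and 0.014 CPM, and only Cd4, a gene that is not restricted to T cells, was called, lower in all 3 strategies. Of 9 markers of striatal projection neurons 8 fell in untreated mice of each strategy, where 17.2%, 17% and 18.3% of all genes fell, the background for the next 3 lists too. Of 8 astrocyte markers 1, 1 and 1 rose and 4, 5 and 5 fell in untreated mice of 2[4]6, 6[4]10 and 2+6[8]10, beside the fall of Apoe. Their sum ran from 2999 to 3610 CPM in zQ175 mice and from 3642 to 4519 CPM in WT mice. Slc1a2, at a mean of 2039 CPM over all libraries, and Aldoc, at 668 CPM, made up most of that sum. Of 6 endothelial and mural markers 5, 5 and 4 fell, of 6 oligodendrocyte markers 3, 3 and 4 fell, and none of either rose. None of 5 choroid plexus markers and none of 5 meningeal fibroblast markers was called.

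Likeness between members was measured among mice within groups. For each gene the mean of its group and sex was taken from log2 CPM, and Pearson's r of what was left was computed over the 143 libraries as a description. Of the 45 pairs of members 38 had a positive r, with a median of 0.31, against 49.2% positive and a median of 0.00 over all pairs of 16295 genes. The homeostatic genes Cx3cr1, P2ry12, Tmem119 and Aif1 also varied with the members, with a positive r in 33 of 40 pairs and a median of 0.21. Axl had 0.55 with Cx3cr1, Apoe had 0.44 with Tmem119, and Cst7 had 0.37 with Tmem119. Trem2 and Apoe had the highest value, 0.70, and Lpl and Spp1 the lowest, -0.28. Apoe and Axl had 0.56, Trem2 and Tyrobp 0.54, Cst7 and Itgax 0.41, and Cst7 and Clec7a 0.25. Cst7, Clec7a and Itgax, which moved together between genotypes, were not the closest pairs within groups. Their median counts per library were 6, 18 and 12, against 329 for Trem2 and 33021 for Apoe. Counting error lowers r at such small counts, so their lower r cannot be read as less shared variation. All genes of a library share its depth and dissection.

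**Figure D5:**
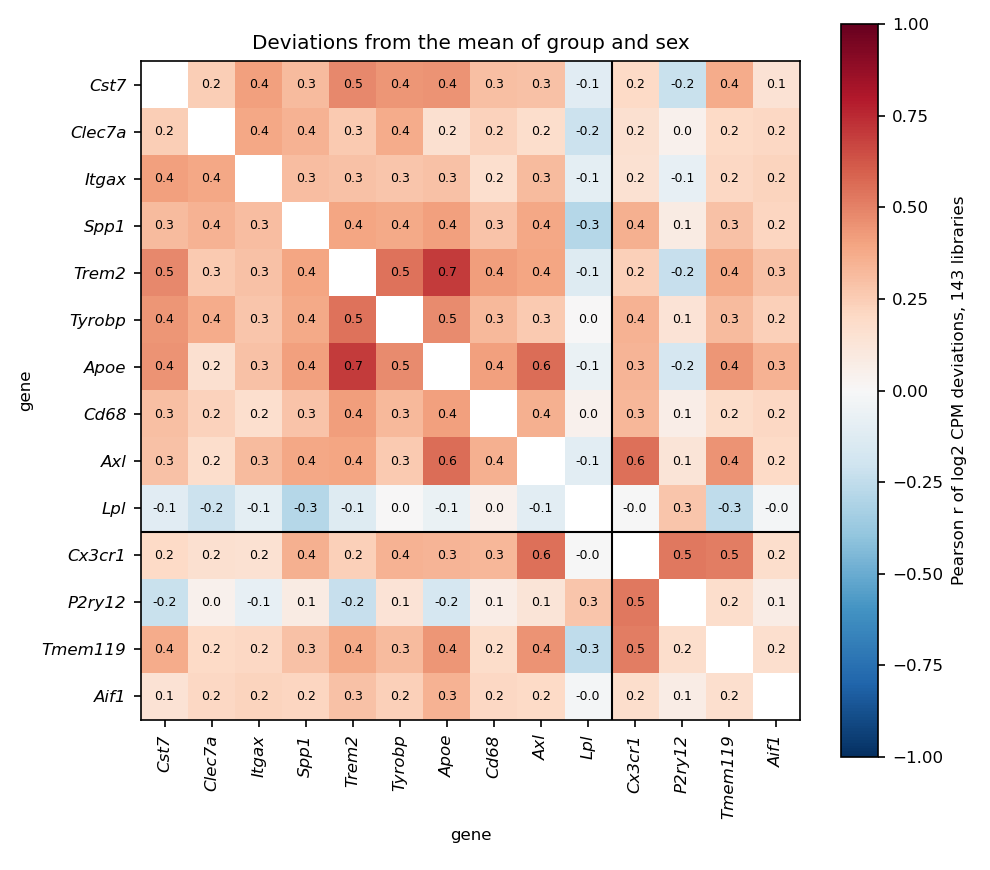
Pearson's r between each pair of the 10 members and the homeostatic genes Cx3cr1, P2ry12, Tmem119 and Aif1 over 143 libraries. It was computed from log2 CPM after the mean of each group and sex was taken away, with the color scale giving r. Black lines divide the members from the homeostatic genes. Trem2 and Apoe are highest at 0.70, and Lpl has the lowest values, down to -0.28 with Spp1.

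In the map of pairs Lpl stands apart from the rest of the set. The non-member genes most like the mean of the 10 members, by the same r over 143 libraries among 16285 genes, were C1qc (0.81), S100a16 (0.79), Anxa5 (0.78), Sept4 (0.78), Cd81 (0.77), Tsc22d4 (0.77), Lgmn (0.76) and C1qa (0.75). C1qc and C1qa encode chains of complement C1q and Lgmn encodes a lysosomal protease. Only Lgmn among these genes is on a list counted here, and the cell types behind the likeness were not tested.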

How the data were processed

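Libraries were made from polyadenylated RNA, 1 per mouse. The authors counted reads with RSEM on GRCm38, per the submitters' processing notes, and the deposited values are RSEM expected counts, here rounded to whole numbers. Versions, aligner, strandedness and annotation: not given in the sources used here. The authors deposited another table, named for FPKM, whose columns each sum to 1e+06, so these deposited values were read as TPM (scaled to a fixed total by the authors) and used for levels between genes alone. Entries without a mouse gene (7 of 41135, with 5.91e-06% of counts) were left out. Symbols matched 40254 of 41128 identifiers. No libraries were identical.

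Groups came from the labels, each naming a separate mouse. Tests used edgeR 4.0.16 (R 4.3.3): TMM scaling, filterByExpr by group, robust quasi-likelihood F tests, 1 fit per strategy over its 6 groups and sex (15716, 15757 and 15506 genes in 2[4]6, 6[4]10 and 2+6[8]10). Strategies were compared in a fit of all groups with sex within strategy (16295 genes), sexes in a fit of group by sex. Adjusted p values follow Benjamini-Hochberg. SE is the absolute log2 fold change over the root of F, with intervals of 95%. The script was tested on simulated counts.

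The members and lists were chosen with earlier results of these data known, so a list's count is not independent evidence. Genes named are the 10 members, Htt, up to 6 called genes per list with the smallest adjusted p, Cx3cr1, P2ry12, Tmem119 and Aif1, and the 8 genes most like the members; marker genes named for a low level were picked after their values were seen. A gene that the naming rule takes is counted in its list but not reported here. Libraries counted as rich in choroid plexus genes at over 10 times the median summed CPM of that list, and in cortical genes at over 3 times that of Tbr1 and Neurod6. Alternatives were DESeq2 1.42.0, RLE scaling, an unfiltered fit, the compared groups alone, all groups in 1 fit, leaving out sex, a replicate block and leaving out each replicate number. Chosen after seeing the data were length and GC slopes (known for 99.3% of genes), the libraries left out, untreated controls for HTT-10150, and DESeq2, RLE and the unfiltered fit for 3 further kinds of difference. Positions are from GENCODE M21 on GRCm38 and promoters from RefSeq GRCm38.p6.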

Additional observations from a re-analysis of the deposited data

Results flagged for a closer look

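In 4 of the members the same mouse lay far above the other 7 of its group. Male 2 of untreated zQ175 mice in 6[4]10 had 2.63 CPM of Cst7, 26 CPM of Trem2, 16.8 CPM of Tyrobp and 2407 CPM of Apoe. Without it the genotype difference of Apoe in 6[4]10 passed the test, as given above, and Cst7, Clec7a, Itgax and Axl were called as before.

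Single mice also stood apart for other members. For Cst7, female 4 of zQ175 mice given NTC in 2[4]6 was high at 0.575 CPM, and for Itgax, female 1 of untreated WT mice in 2+6[8]10 was high at 1.44 CPM. For Lpl, male 2 of zQ175 mice given HTT-10150 in 6[4]10 was low at 46.6 CPM, female 1 of untreated WT mice in 6[4]10 was low at 52.0 CPM, and female 2 of WT mice given NTC in 2[4]6 was high at 112 CPM. For Axl, among zQ175 mice given NTC, male 4 of 2[4]6 and male 4 of 2+6[8]10 were high at 47.8 and 49.8 CPM, and female 4 of 6[4]10 was low at 37.5 CPM. For Spp1, male 4 of WT mice given HTT-10150 in 6[4]10 was high at 20.02 CPM. In all, 13 of 180 groups of a member held such a mouse, or 7.22%. The cutoff was set for about 1 in 20 groups of independent, normally spread values. CPM at low counts need not be spread so, and the members share their mice, so these shares are not directly comparable. The low Lpl value of male 2 comes from a library rich in cortical genes, and the low Axl value of female 4 from the library with the most choroid plexus RNA, at a summed 5404 CPM; the part of either in those values was not tested.

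The untreated genotype difference of Cst7 was 2.49 larger on the log2 scale in 6[4]10 than in 2[4]6, by the test of that difference, and age and cohort cannot be told apart there.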

How the results depend on the processing

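The count of members called in untreated zQ175 against WT was 3, 4 and 5 in 2[4]6, 6[4]10 and 2+6[8]10. It ran from 2 to 4, from 3 to 5 and from 4 to 5 under the other settings, and from 1 to 2, from 4 to 5 and from 4 to 5 with 1 replicate number left out. Apoe in 6[4]10 was gained in 5 settings (-0.17 to -0.24) and also without replicate number 2 (-0.24). Trem2 in 2[4]6 was gained with a replicate block (-0.17) and without the libraries rich in choroid plexus or cortical genes (-0.25). Cd68 and Axl were the members lost, as given above. Keeping only the groups compared left Cst7 out of the test in both 10-month strategies. For HTT-10150 against NTC in zQ175 mice the count stayed at 0 in 2[4]6 and 6[4]10. In 2+6[8]10 it was 1 (Itgax) and became 0 with length and GC slopes (-0.92, adjusted p = 0.26), with no filter (-0.82, adjusted p = 0.0709), with untreated mice in place of NTC (-0.41), without the libraries rich in choroid plexus or cortical genes (-0.72) and with any replicate number left out (0 to 0). The cause was not tested. DESeq2 gave Itgax there -0.84 at an unadjusted p of 0.000725 and no adjusted p, so it has no verdict, and likewise none for Cst7 between strategies (2.50, unadjusted p = 3.07e-05). Trem2 in untreated WT mice of 6[4]10 against 2[4]6 was called with RLE (0.22) and with DESeq2, and Apoe in untreated zQ175 mice of 2+6[8]10 against 6[4]10 with DESeq2 (-0.17). Lpl in untreated zQ175 mice of 6[4]10 against 2[4]6 was not called with no filter (adjusted p = 0.0545). No member's called value changed sign under any setting.

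Mice with the same replicate number deviated together weakly at most. Of 8 pairs in each of 6 comparisons, 0 to 3 had a correlation over 0.1, and the lowest was -0.17. Same-number pairs had a median correlation of 0.033 to 0.053 in 2[4]6 and 6[4]10, against -0.050 to 0.003 for other numbers. In 2+6[8]10 the medians were -0.044 and -0.057, against 0.017 and -0.002 for other numbers. A mouse correlated best with its own number, out of the 4 numbers of its sex, in 1 to 4 of 8. With a replicate block the counts were 4, 5 and 5 for untreated zQ175 against WT and 0, 0 and 1 for HTT-10150 against NTC. The block added Trem2 in 2[4]6 (-0.17) and Apoe in 6[4]10. Counts of Cst7, Clec7a and Itgax per library limit every fold change given for them.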
